A study of Mus musculus with 15 samples.

Results

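The Musashi, neuronal ELAV and RBFOX families are 3 groups of RNA-binding proteins of the nervous system, and their genes were followed here in cultured mouse neural stem and progenitor cells whose labels give a knockout or a transgene of Kat6b, which encodes a histone acetyltransferase. The 8 genes were taken by symbol from the count tables, which hold 26263 named genes: Msi1, Msi2, Elavl2, Elavl3, Elavl4, Rbfox1, Rbfox2 and Rbfox3. Of these, 7 passed the filter on low counts and were tested, and Rbfox1 did not pass it.

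Musashi proteins bind the 3′ parts of messenger RNAs and regulate their translation, and Msi1 is widely used as a marker of neural stem cells. The neuronal ELAV proteins Elavl2, Elavl3 and Elavl4 (HuB, HuC and HuD) bind AU- and U-rich RNA, stabilise messages and regulate splicing, and are known as markers of cells that have taken the neuronal path. RBFOX proteins regulate splicing at GCAUG motifs, with Rbfox2 broadly expressed and Rbfox3, the antigen NeuN, a marker of maturing neurons.

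The cultures were derived from embryonic forebrain (E12.5 dorsal telencephalon) and kept as neurospheres, floating colonies that proliferate in EGF and FGF. Bulk RNA sequencing covered 4 groups: Kat6b-/- cells on C57BL/6 (KO_B6, n = 4), wild-type cells on C57BL/6 (WT_B6, n = 3), cells with the Tg(Kat6b) transgene on a mixed FVBxBALB/c background (Tg_FvB, n = 6), and wild-type cells on that mixed background (WT_FvB, n = 2). Per the series design the transgene raised Kat6b RNA about 4.5-fold, and the mixed background was used because transgenic mice did not survive on an inbred one. Neither the knockout allele of Kat6b nor the promoter of the transgene is named by the sources used here. The knockout and transgene comparisons were thus made on different strains, and an effect of strain cannot be told apart from anything else that distinguished these 2 sets of cultures.

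Each library held between 12336303 and 62819028 counts in named genes. Kat6b averaged 63.4 CPM (counts relative to the library total, which was scaled by TMM normalisation factors) in KO_B6, against 84.2 CPM in WT_B6, a difference that edgeR's quasi-likelihood test did not call (log2 fold change -0.41, Benjamini-Hochberg adjusted p = 0.0571). Since the part of the gene that was deleted is not known here, this count over the whole gene does not check the knockout label. It averaged 243 CPM in Tg_FvB, against 53.1 CPM in WT_FvB (log2 fold change 2.19, adjusted p = 0.000238 in the same edgeR test). In their titles the Tg_FvB samples appear as knockouts, while the genotype field and the Kat6b level make them transgenic, and the headers over the counts of Tg_FvB replicates 5 and 6 read as wild types. Kat6b was at 139.6 CPM in replicate 5 and 288.9 CPM in replicate 6. It was at 228.7 to 268.2 CPM in Tg_FvB replicates 1 to 4, and at 54.4 and 51.9 CPM in WT_FvB. Replicates 5 and 6 lay at 3.94 and 4.81 on the first principal component (47.9% of the variance), between the B6 libraries, all below 0, and the other FvB libraries, at 33.8 or higher. The transgene comparison of the tested members is therefore also given without them. Msi2 (log2 fold change -0.14, edgeR adjusted p = 0.126), Elavl2 (0.24, adjusted p = 0.467) and Elavl4 (0.19, adjusted p = 0.5) were then not called. Marker genes and other RNA-binding protein genes are given with them only.

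Several libraries of a group were almost alike. The biological coefficient of variation, the spread between libraries beyond counting error, was 0.0172 to 0.0358 among the 3 WT_B6 libraries, 0.0268 between KO_B6 replicates 2 and 3, 0.0338 to 0.0503 among Tg_FvB replicates 1 to 3 and 0.0316 between the WT_FvB libraries. All other pairs within a group had 0.115 to 0.275. These close pairs still differed beyond sampling noise (chi-square per degree of freedom 2.1 to 11.4). This excess does not show them to be separate cultures. The main test kept 15 libraries, and an alternative summed the close ones, giving 9 profiles. Summing leaves WT_B6 and WT_FvB with 1 profile each, so the spread in those fits comes from KO_B6 and Tg_FvB alone. Close libraries also crossed litters. KO_B6 replicates 2 and 3 are of litters 843 and 929, and so are WT_B6 replicates 2 and 4. Ratios by litter are therefore no separate checks of each other. Nothing in the labels says that the cultures were kept apart after the embryos were taken, so p-values measure the spread between these libraries, which may in part be technical.

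Genes that mark neural stem cells were abundant in all groups, with summed levels over 14 markers of 8016.7 to 9602.6 CPM in KO_B6, 9687.9 to 9734.2 CPM in WT_B6, 7351.3 to 10592 CPM in Tg_FvB and 7586.4 to 7785.7 CPM in WT_FvB. The 6 microglia markers summed to at most 0.456 CPM in any library, and C1qa had no count in any of the 15. Endothelial markers (5 genes) summed to between 1.35 and 3.6 CPM, and mural and meningeal markers (5 genes) to between 5.83 and 21.2 CPM.

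In the libraries labelled knockout, 4 of the 7 tested genes were called lower, Msi1, Msi2, Elavl3 and Elavl4, and none higher. Over all 15261 genes tested, 20.9% were called lower and 24.8% higher in KO_B6 (45.8% in either direction), so a call in this comparison is common. In bulk libraries such as these, fewer cells of a type and less RNA per cell cannot be told apart. The median log2 fold change of the 7 genes was -0.35, against 0.02 over all genes tested. With the transgene, Elavl3 and Rbfox3 were called higher and none lower, where 0.688% of all genes were called higher and 1.17% lower (1.85% in either direction), and the median of the 7 genes was 0.31, against 0.01 over all genes. Setting the 9 summed profiles in place of the 15 libraries left none of the 7 genes called in either comparison, with 5 genes called among all genes for the knockout and 0 for the transgene by edgeR's quasi-likelihood test. Without adjustment for multiple tests, 3464 and 471 genes were below 0.05 in those fits, Msi1 and Msi2 among them for the knockout and Elavl3 and Rbfox3 for the transgene.

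**Figure D1:**
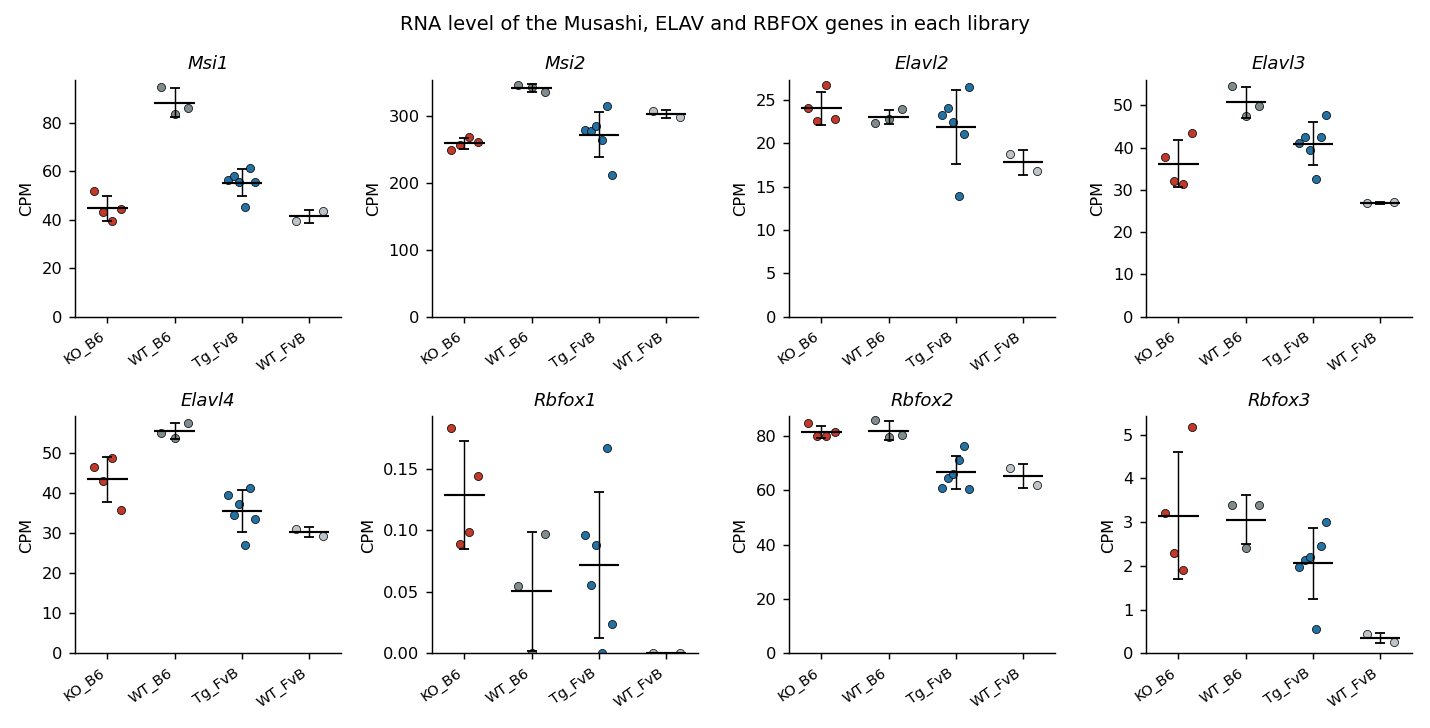
RNA level (CPM) of the 8 genes in each library of KO_B6, WT_B6, Tg_FvB and WT_FvB; each point is a library, lines are group means and bars are SD. Msi1 is at 39.3 to 51.8 CPM in KO_B6 and at 83.8 to 94.9 CPM in WT_B6, and Rbfox3 is at 0.443 CPM or lower in both WT_FvB libraries.

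Coordinates and gene types are those of RefSeq on GRCm38, the assembly of the mm10 build that the submitters' processing notes name. Exon overlaps and strands are those of GENCODE M21. Msi1 (gene identifier 17690) lies at chr5:115359059-115455698, Msi2 (76626) at chr11:88339382-88718306, Elavl2 (15569) at chr4:91211533-91400108, and Elavl3 (15571) at chr9:22015005-22052146. Elavl4 (15572) lies at chr4:110203737-110351939, Rbfox1 (268859) at chr16:5884793-7412480, Rbfox2 (93686) at chr15:77078990-77308434, and Rbfox3 (52897) at chr11:118489760-118911597. All are protein-coding, and counts were summed over the exons of a gene, so that isoforms are not resolved. Of the 8, only Elavl3 shares exon bases with another annotated gene, 256 bases (3.7% of its exons) with Gm49318 on the same strand.

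The promoter windows of Elavl3 and Rbfox3 are shown because these were the members called higher with the transgene. Each is RefSeq's window on GRCm38.p6 from 250 bases before to 50 bases after an annotated start, on the minus strand, and capitals mark E-boxes (CANNTG, a motif that reads the same way on both strands and is bound by basic helix-loop-helix factors). The Rbfox3 window belongs to a start inside the span of the gene given above.
Elavl3 promoter, chr9:22051974-22052273: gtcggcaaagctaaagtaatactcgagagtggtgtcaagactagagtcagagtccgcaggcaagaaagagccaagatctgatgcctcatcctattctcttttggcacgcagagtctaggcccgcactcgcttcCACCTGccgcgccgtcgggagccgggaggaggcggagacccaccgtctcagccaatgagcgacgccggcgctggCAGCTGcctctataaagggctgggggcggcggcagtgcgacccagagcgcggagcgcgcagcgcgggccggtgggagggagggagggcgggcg
Rbfox3 promoter, chr11:118760992-118761291: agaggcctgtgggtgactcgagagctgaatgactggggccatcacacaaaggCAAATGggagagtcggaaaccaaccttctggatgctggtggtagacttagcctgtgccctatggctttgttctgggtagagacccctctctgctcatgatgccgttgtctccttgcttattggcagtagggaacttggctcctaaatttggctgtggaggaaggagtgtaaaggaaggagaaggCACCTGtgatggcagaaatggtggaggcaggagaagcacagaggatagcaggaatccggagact
Each window holds 2 E-boxes, and 72.3% of the 32851 promoter windows in the table hold at least 1. The windows differ in base composition. That of Elavl3 is 65.3% GC with 29 CpG sites (percentile 87.1 among all windows), and that of Rbfox3 is 53.0% GC with 4 CpG sites (percentile 31.4), where the median window has 52.7% GC and 7 CpG sites. A match describes these letters only and does not show binding by any factor.

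Levels were compared between genes per kilobase of the gene length deposited with the counts. In WT_B6, Msi1 (56.9 ± 3.78 CPM per kb, SD, n = 3) and Msi2 (50.04 ± 0.84 CPM per kb) were far above the rest, followed by Elavl4 (12.4 ± 0.434), Rbfox2 (11.1 ± 0.464), Elavl3 (10.1 ± 0.722), Elavl2 (5.05 ± 0.174), Rbfox3 (0.673 ± 0.123) and Rbfox1 (0.00919 ± 0.00884 CPM per kb). Averaged over all 15 libraries, Msi2 and Msi1 stood at percentiles 86.2 and 83.9 of the per-kilobase level among the tested genes, Rbfox2 at 52.5, Elavl4 at 50.6, Elavl3 at 47.3, Elavl2 at 37.7 and Rbfox3 at 14.2. The length deposited for Msi1, 1551 bases, is well short of the 5800 exon bases that GENCODE M21 gives the gene. Its rank among genes depends on that length, while comparisons of 1 gene between groups do not.

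Msi1, the founding mammalian Musashi protein, had 51.8, 43.4, 39.3 and 44.6 CPM in KO_B6, against 94.9, 83.8 and 86.3 CPM in WT_B6. Every knockout library lay below every wild-type library. The group means were 44.8 ± 5.19 CPM in KO_B6 (SD, n = 4) and 88.3 ± 5.87 CPM in WT_B6 (n = 3), a 0.507-fold level (log2 fold change -0.98 ± 0.10 SE, 95% interval -1.19 to -0.77, adjusted p = 7.77e-06 in edgeR's quasi-likelihood test, Benjamini-Hochberg adjustment). The ratio of knockout to wild type was 0.568 in litter 843 and 0.486 in litter 929, the 2 litters that held both genotypes. Near-identical libraries are split between these litters, so the 2 ratios are no separate checks. Summing near-identical libraries left the fold change at -0.96 with an edgeR adjusted p of 0.0749, and across the other settings its adjusted p ran from 1.24e-19 to that value.

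In the transgene comparison, Msi1 ran from 45.1 over a median of 56.1 to 61.2 CPM in the 6 Tg_FvB libraries, against 39.6 and 43.4 CPM in WT_FvB. The groups did not overlap, but the lowest transgenic library, replicate 4, came close to the higher wild type. The difference was not called (log2 fold change 0.42 ± 0.11, 95% interval 0.18 to 0.65, edgeR adjusted p = 0.0691). It passed the threshold when replicate 4 was left out and with DESeq2. Without replicates 5 and 6 the fold change was 0.37 and the edgeR adjusted p 0.09, and over its alternatives adjusted p ran from 0.00567 to 1. The test of the difference between the 2 effects called Msi1 (knockout effect minus transgene effect -1.40 on the log2 scale, 95% interval -1.71 to -1.08, edgeR adjusted p = 7.72e-05), in a test that called 37.3% of all genes, 17.8% with this sign and 19.5% with the other.

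Msi2, a second Musashi protein with broad expression in the embryonic brain, had 248.7, 257.0, 267.9 and 261.1 CPM in KO_B6, against 346.0, 342.8 and 334.9 CPM in WT_B6. Again no knockout library reached the lowest wild type. The fold change was smaller than that of Msi1, at 0.758-fold (log2 fold change -0.40 ± 0.09 SE, 95% interval -0.60 to -0.20, edgeR adjusted p = 0.0028). It was 0.738 in litter 843 and 0.79 in litter 929, between which near-identical libraries are split. The summed profiles gave -0.44 with an edgeR adjusted p of 0.212, and over all other settings adjusted p ran from 2.94e-06 to that value.

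With the transgene, Msi2 ran from 211.2 over a median of 278.1 to 314.2 CPM in Tg_FvB, against 306.9 and 298.0 CPM in WT_FvB. One transgenic library, replicate 5, lay above both wild types, and the other 5 lay below them. The difference was not called (log2 fold change -0.15, 95% interval -0.37 to 0.06, edgeR adjusted p = 0.421). Nor was the difference between the 2 effects (-0.25, 95% interval -0.54 to 0.05, edgeR adjusted p = 0.173), although leaving out replicates 5 and 6 brought it to -0.29 with an adjusted p of 0.00327 in the edgeR test, the lowest of its alternatives, which ran up to 0.617.

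The balance of the pair is described by their ratio. Msi1 over Msi2, both per kilobase, was 0.763 ± 0.112 in KO_B6 (SD, n = 4) and 1.14 ± 0.0662 in WT_B6 (n = 3). It was 0.905 ± 0.136 in Tg_FvB (n = 6) and 0.604 ± 0.0515 in WT_FvB (n = 2). The highest knockout value, 0.916, was below the lowest of WT_B6, 1.07, and the lowest transgenic value, 0.752, was above the higher value of WT_FvB, 0.641. With the exon bases of GENCODE M21 in place of the deposited lengths the ratio was 0.312 ± 0.0458 in KO_B6 and 0.464 ± 0.027 in WT_B6, below 1 in every library, so which of the pair is higher rests on the length used. No test was made of these ratios.

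Of 4 messages known as Musashi targets, Numbl, a relative of the Notch inhibitor Numb, was called lower in KO_B6, at 17.7 ± 1.75 CPM, against 33.6 ± 4.63 CPM in WT_B6 (log2 fold change -0.93 ± 0.20, edgeR adjusted p = 0.00172). Numb itself averaged 13.7 CPM in KO_B6 and 15.5 CPM in WT_B6 (edgeR adjusted p = 0.0938), and the cell cycle inhibitor gene Cdkn1a 222.4 CPM in KO_B6 and 178.2 CPM in WT_B6 (adjusted p = 0.084). Robo3 averaged 1.01 CPM in KO_B6 and 0.928 CPM in WT_B6 and was not called (edgeR adjusted p = 0.766). None of the 4 was called with the transgene. Over all genes, 45.8% were called in the knockout and 1.85% with the transgene. Musashi proteins are known to act on translation, which RNA levels do not measure.

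Elavl3 was the neuronal ELAV gene with calls in both comparisons and in opposite directions. It had 37.8, 32.1, 31.5 and 43.5 CPM in KO_B6, against 54.6, 47.5 and 49.9 CPM in WT_B6, and the highest knockout library stayed below the lowest wild type. The mean was 36.2 ± 5.64 CPM in KO_B6 and 50.7 ± 3.63 CPM in WT_B6 (log2 fold change -0.48 ± 0.12, 95% interval -0.74 to -0.23, edgeR adjusted p = 0.00413). The ratio was 0.735 in litter 843 and 0.751 in litter 929, between which near-identical libraries are split. With summed profiles the fold change was -0.45 with an edgeR adjusted p of 0.267, the highest over its alternatives, which began at 0.000331.

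In Tg_FvB, Elavl3 ran from 32.5 over a median of 41.8 to 47.8 CPM, against 26.8 and 27.1 CPM in WT_FvB, without overlap. The level was 1.52-fold (log2 fold change 0.61 ± 0.14, 95% interval 0.32 to 0.90, edgeR adjusted p = 0.0392). In litter 844, the only litter with both genotypes on this background, the ratio was 1.55, over the same WT_FvB libraries. Without Tg_FvB replicates 5 and 6 the fold change was 0.53 and the edgeR adjusted p 0.0454, with 4.19% of all genes called, and over its alternatives adjusted p ran from 0.00248 to 1. The call did not hold without either WT_FvB library or without Tg_FvB replicate 1, 2, 3 or 6, where the fold change stayed between 0.55 and 0.66 over all 8 fits that left out 1 library of these groups. The difference between the knockout and transgene effects was called (-1.09, 95% interval -1.48 to -0.70, edgeR adjusted p = 0.00064).

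Elavl4, which like Elavl3 is known for a role in neuronal differentiation, had 46.5, 43.1, 48.7 and 35.8 CPM in KO_B6, against 55.0, 53.9 and 57.7 CPM in WT_B6. No knockout library reached the wild types, and replicate 4 was the lowest. The difference was called at log2 fold change -0.35 ± 0.12 (95% interval -0.61 to -0.10, edgeR adjusted p = 0.0265). It passed the threshold no longer without KO_B6 replicate 4, WT_B6 replicate 1 or WT_B6 replicate 4, with litter as a covariate or with summed profiles, and its fold change ran from -0.44 to -0.27 over these and the other alternatives.

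With the transgene, Elavl4 ran from 27.0 over a median of 36.0 to 41.4 CPM in Tg_FvB, against 31.1 and 29.4 CPM in WT_FvB. Replicate 4 lay below both wild types and the other 5 transgenic libraries above them. The difference was not called (0.24, 95% interval -0.05 to 0.53, edgeR adjusted p = 0.367), while the difference between the knockout and transgene effects was (-0.59, 95% interval -0.98 to -0.20, edgeR adjusted p = 0.0199). That last call did not hold without WT_FvB replicate 1 or 2, with litter as a covariate (-0.65, edgeR adjusted p = 0.0722) or with summed profiles (-0.62, edgeR adjusted p = 0.341), and over its alternatives adjusted p ran from 0.00267 to 0.341.

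Elavl2 showed no called difference by genotype. It had 24.0, 22.6, 26.7 and 22.8 CPM in KO_B6, against 22.4, 22.8 and 23.9 CPM in WT_B6, and the groups overlapped. The interval of the difference was -0.25 to 0.37 on the log2 scale (fold change 0.06, edgeR adjusted p = 0.761). In Tg_FvB it ran from 13.9 over a median of 22.9 to 26.5 CPM, against 18.8 and 16.8 CPM in WT_FvB, with replicate 4 again lowest and alone below the wild types. That difference was not called either (0.31, 95% interval -0.04 to 0.66, edgeR adjusted p = 0.327). It was called when Tg_FvB replicate 4 was left out (0.40, edgeR adjusted p = 0.0181, in a range of 0.0181 to 1 over its alternatives). The difference between the knockout and transgene effects was not called (-0.25, 95% interval -0.71 to 0.22, edgeR adjusted p = 0.394), but it too was called without that library (-0.34, edgeR adjusted p = 0.0428, in a range of 0.0268 to 0.745).

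Summed per kilobase, the 3 neuronal ELAV genes reached 22.2 ± 1.06 CPM per kb in KO_B6 (SD, n = 4), 27.5 ± 0.903 in WT_B6 (n = 3), 20.9 ± 2.68 in Tg_FvB (n = 6) and 16.0 ± 0.534 in WT_FvB (n = 2). Elavl4 was the leading member in KO_B6 with 43.7% of the sum and in WT_B6 with 45.0%. In Tg_FvB the shares of Elavl3 (39.1% ± 2.12) and Elavl4 (38.0% ± 3.12) lay within each other's spread, while in WT_FvB Elavl3 held 33.5% ± 1.36 and Elavl4 42.1% ± 0.247. The share of Elavl2 was 23.8% ± 1.2 in KO_B6 and 18.4% ± 0.769 in WT_B6, without overlap between the 2 groups.

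Elavl1 (HuR), the ubiquitous member of the ELAV family, was called higher in the knockout. It averaged 134.6 ± 4.91 CPM in KO_B6 and 101.1 ± 0.763 CPM in WT_B6 (log2 fold change 0.41 ± 0.10, edgeR adjusted p = 0.00439). Elavl1 over the sum of the neuronal members, per kilobase, was 0.983 to 1.06 in KO_B6, against 0.596 to 0.639 in WT_B6. It ran from 0.627 to 1.36 in Tg_FvB, against 1.18 and 1.36 in WT_FvB. The groups of the mixed background overlapped, and Elavl1 itself was not called with the transgene (-0.14, edgeR adjusted p = 0.501).

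**Figure D2:**
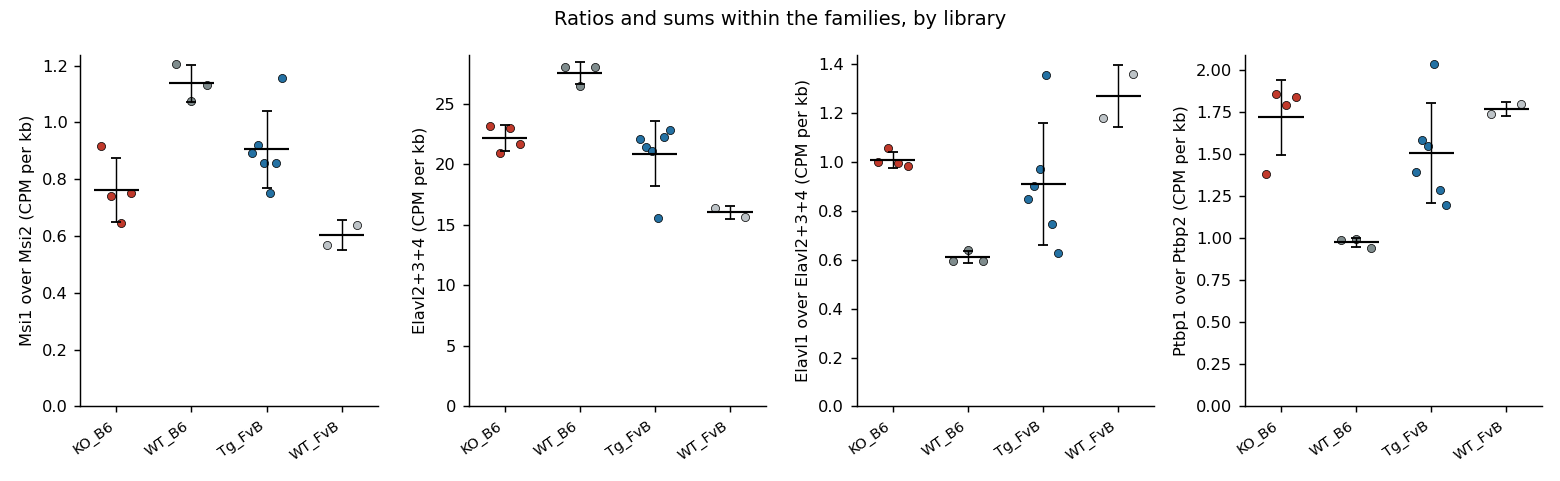
Ratios and sums within the families by library, on the scale of CPM per kilobase, for KO_B6, WT_B6, Tg_FvB and WT_FvB; points are libraries, lines are means and bars are SD. Msi1 over Msi2 is below 1 in all 4 KO_B6 libraries and above 1 in all 3 WT_B6 libraries with the deposited gene lengths (below 1 in every library with GENCODE lengths), and Ptbp1 over Ptbp2 is 1.38 to 1.85 in KO_B6 and 0.943 to 0.995 in WT_B6.

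Rbfox2 was the main RBFOX gene in every library, with 94.0% ± 2.50 of the per-kilobase sum of the 3 genes in KO_B6, 94.2% ± 0.963 in WT_B6, 95.1% ± 2.03 in Tg_FvB and 99.1% ± 0.233 in WT_FvB. It had 84.6, 79.9, 79.8 and 81.5 CPM in KO_B6, against 85.8, 79.6 and 80.3 CPM in WT_B6. The groups overlapped almost fully, and the interval of the difference, -0.17 to 0.15 on the log2 scale, was the narrowest of the 7 genes in this comparison (fold change -0.01 ± 0.07, edgeR adjusted p = 0.947). In Tg_FvB it ran from 60.4 over a median of 65.3 to 76.2 CPM, against 68.3 and 62.0 CPM in WT_FvB, again with overlap (0.03, 95% interval -0.15 to 0.20, edgeR adjusted p = 0.881). The difference between the 2 effects was not called (-0.04, 95% interval -0.27 to 0.20, edgeR adjusted p = 0.825).

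Rbfox3 was low everywhere and lowest in the wild type of the mixed background. It had 1.97, 2.14, 2.20, 0.554, 2.46 and 3.01 CPM in Tg_FvB replicates 1 to 6, against 0.443 and 0.273 CPM in WT_FvB, where these rest on 9 and 6 counts. All 6 transgenic libraries were above both wild types, replicate 4 only slightly. The ratio of the means was 5.74 (log2 fold change 2.57 ± 0.60 SE, 95% interval 1.30 to 3.84, edgeR adjusted p = 0.0427). Within litter 844 it was also 5.74, over the same WT_FvB libraries, so this is no separate check. Without replicates 5 and 6 the fold change was 2.33 with an edgeR adjusted p of 0.0602, and over its alternatives adjusted p ran from 0.00067 to 1. The call was also lost without either WT_FvB library or Tg_FvB replicate 1, 2, 3 or 6, with fold changes between 2.25 and 2.93.

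On the B6 background Rbfox3 had 3.22, 2.31, 1.90 and 5.17 CPM in KO_B6, against 3.38, 2.41 and 3.38 CPM in WT_B6. The knockout libraries lay on both sides of the wild types, and the interval of the difference was wide, from -0.73 to 0.84 (log2 fold change 0.06, edgeR adjusted p = 0.918). The difference between the 2 effects was called (-2.52, 95% interval -4.02 to -1.01, edgeR adjusted p = 0.0123). It did not hold without WT_FvB replicate 2, with litter as a covariate (-2.39, edgeR adjusted p = 0.0664) or with summed profiles (-2.38, edgeR adjusted p = 0.293), and over its alternatives adjusted p ran from 0.00106 to 0.293.

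Rbfox1, a splicing regulator of mature neurons, was at the edge of detection. It had 7, 5, 4 and 9 counts in KO_B6 and 1, 0 and 3 counts in WT_B6. In Tg_FvB it had 2, 2, 2, 0, 4 and 1 counts, and in WT_FvB none in either library, which allows up to 0.148 and 0.137 CPM (3 counts in each, counting error only). The filter on low counts removed it. In the fit without that filter it was not called in any comparison (edgeR adjusted p = 0.234 for the knockout and 0.324 for the transgene, over 20600 genes).

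RBFOX proteins act in a large assembly of splicing regulators. Of 8 genes listed for it, all tested, the RNA-binding protein gene Hnrnph1 (555.3 CPM in KO_B6 and 408.3 CPM in WT_B6, log2 fold change 0.44 ± 0.09, edgeR adjusted p = 0.00114) and the RNA helicase gene Ddx5 (1257 CPM in KO_B6 and 978.7 CPM in WT_B6, 0.36 ± 0.07, edgeR adjusted p = 0.000699) were called higher in the knockout. The other 6 were not called, and none was called with the transgene. Shares called over all genes were 45.8% in the knockout and 1.85% with the transgene. The median over the 8 was 0.09 for the knockout and 0.07 for the transgene, against 0.02 and 0.01 over all genes.

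**Figure D3:**
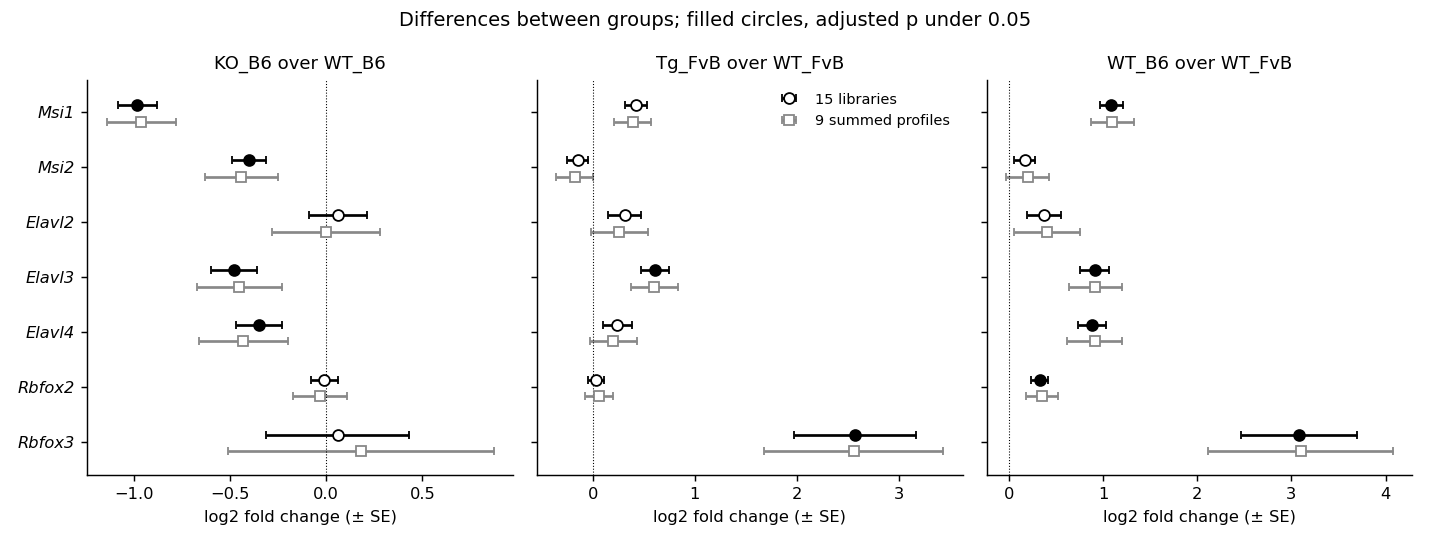
Log2 fold changes (± SE) of the 7 tested genes in KO_B6 over WT_B6, Tg_FvB over WT_FvB and WT_B6 over WT_FvB, with 15 libraries (black circles) and with near-identical libraries summed into 9 profiles (grey squares). Filled symbols have an adjusted p under 0.05 and open ones do not; the fold change of Msi1 in the knockout is -0.96 with 9 profiles and -0.98 with 15 libraries, while the error bars are wider with 9 profiles and none of the squares is filled.

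The wild types of the 2 backgrounds also differed in these genes. In WT_B6 against WT_FvB, Msi1, Elavl3, Elavl4, Rbfox2 and Rbfox3 were called higher, 5 of 7, where 23.5% of all genes were called higher and 25.4% lower (48.9% in either direction). Msi1 averaged 88.3 CPM in WT_B6 and 41.5 CPM in WT_FvB (2.13-fold, edgeR adjusted p = 3.74e-05), and Rbfox3 3.06 CPM in WT_B6 and 0.358 CPM in WT_FvB (8.54-fold, adjusted p = 0.00112 in the same edgeR test). The WT_FvB level of Rbfox3 rests on 9 and 6 counts. Elavl3 was 1.88-fold (adjusted p = 0.00031), Elavl4 1.83-fold (0.000411) and Rbfox2 1.26-fold (0.00808) by edgeR. Msi2 (log2 difference 0.17, 95% interval -0.07 to 0.41) and Elavl2 (0.37, 95% interval -0.01 to 0.76) were not called. With summed profiles this comparison set 1 profile against 1, so no call can be read from it. Log2 fold changes were then 1.1 for Msi1, 0.92 for Elavl3, 0.91 for Elavl4, 0.35 for Rbfox2 and 3.1 for Rbfox3.

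Across the 4 groups, Msi1 averaged 44.8 ± 5.19 CPM in KO_B6, 88.3 ± 5.87 in WT_B6, 55.3 ± 5.43 in Tg_FvB and 41.5 ± 2.68 in WT_FvB (SD). Its level was thus highest in WT_B6, next in Tg_FvB, and KO_B6 and WT_FvB came last and lay within their spread. Elavl3 averaged 36.2 ± 5.64 CPM in KO_B6, 50.7 ± 3.63 in WT_B6, 41.0 ± 4.98 in Tg_FvB and 27.0 ± 0.198 in WT_FvB, the same order, with Tg_FvB and KO_B6 within their spread. Elavl4 averaged 43.5 ± 5.65 CPM in KO_B6, 55.5 ± 1.95 in WT_B6, 35.6 ± 5.13 in Tg_FvB and 30.3 ± 1.19 in WT_FvB, with KO_B6 above Tg_FvB. Msi2 averaged 258.7 ± 8.02 CPM in KO_B6, 341.3 ± 5.73 in WT_B6, 271.8 ± 34.1 in Tg_FvB and 302.5 ± 6.27 in WT_FvB, and KO_B6 and Tg_FvB, the lowest, lay within their spread. Rbfox2 was at like levels in the genotypes of a background, with 81.5 ± 2.22 CPM in KO_B6, 81.9 ± 3.42 in WT_B6, 66.5 ± 6.12 in Tg_FvB and 65.2 ± 4.47 in WT_FvB. The mean of KO_B6 was closer to WT_FvB than to WT_B6 for Msi1, Msi2 and Elavl3, and closer to WT_B6 for Elavl2, Elavl4, Rbfox1, Rbfox2 and Rbfox3. It lay below both wild types for Msi2 and above both for Elavl2, Rbfox1 and Rbfox3. For Rbfox1 these means rest on 25 counts in KO_B6, 4 in WT_B6 and 0 in WT_FvB.

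Markers of other cell states were called as well, where 20.9% of all genes were called lower and 24.8% higher in KO_B6. With the transgene, 1.85% of all genes were called. Of 14 neural stem cell markers, 7 were called lower in KO_B6 (Sox2, Sox1, Pax6, Vim, Hes5, Notch1 and Sox9) and 2 higher (Nes and Hes1), with a median log2 fold change of -0.34. The Notch target Hes5 averaged 94.7 CPM in KO_B6 and 299.4 CPM in WT_B6 (-1.66, edgeR adjusted p = 0.001), and the stem cell factor gene Sox2 472.6 CPM in KO_B6 and 694.5 CPM in WT_B6 (-0.56, adjusted p = 0.00772 by edgeR). With the transgene only Sox1 of the 14 was called, and higher (66.3 CPM in Tg_FvB and 53.6 CPM in WT_FvB, 0.31, edgeR adjusted p = 0.0488).

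Neuron markers split. Of 19, 16 were tested, and in KO_B6 the early neuronal genes Tubb3 (8.79 CPM, against 25.1 CPM in WT_B6, log2 fold change -1.51, edgeR adjusted p = 0.000108) and Dcx (13.9 CPM, against 38.5 CPM in WT_B6, -1.47, edgeR adjusted p = 0.000543) were called lower, with Ina and Bcl11b. Nefl, Snap25 and Neurod1 were called higher. In WT_B6, however, Nefl rests on 1 to 2 counts per library and Neurod1 on 2 to 4. Syp and Neurod1 were called higher in Tg_FvB and none lower, while Dcx had 28.3 CPM in Tg_FvB and 11.9 CPM in WT_FvB without a call (1.26, edgeR adjusted p = 0.0636). The WT_FvB level of Neurod1 rests on 1 count in each library. Slc17a6, a gene of mature glutamatergic neurons, had no count in KO_B6, WT_B6 or WT_FvB.

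Summed over the 19 genes, neuron markers ran from 1283.6 to 1378.5 CPM in KO_B6, 1336.6 to 1346.3 CPM in WT_B6, 966.6 to 1219.3 CPM in Tg_FvB and 1079.5 to 1125.1 CPM in WT_FvB, a sum led by Map2 and Gap43. Markers of intermediate progenitors (6 genes) summed to 245.3 to 263.4 CPM in KO_B6, 400.9 to 405.3 CPM in WT_B6, 246.5 to 357.8 CPM in Tg_FvB and 304.2 to 307.6 CPM in WT_FvB. That sum was led by Btg2, called lower in the knockout (154.3 CPM in KO_B6 and 322.8 CPM in WT_B6). Hes6, next in level, was called higher there (87.1 CPM in KO_B6 and 70.7 CPM in WT_B6). The other 3 tested genes were not called in the knockout, and with the transgene 1 of 5 was called, lower. The part of these markers in the values of the Musashi, ELAV and RBFOX genes was not tested.

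Calls among glial markers are likewise to be read against 45.8% of all genes in the knockout and 1.85% with the transgene. Astrocyte markers (8 genes, led by Aldoc and Slc1a2) summed to 770.8 to 866.8 CPM in KO_B6, 1042.5 to 1046.6 CPM in WT_B6, 1041.6 to 1301.4 CPM in Tg_FvB and 1795.9 to 1813.9 CPM in WT_FvB, with 5 of 8 called lower in the knockout, 4 of 8 lower with the transgene and none higher in either. Oligodendrocyte lineage markers (8 genes, led by Olig1 and Olig2) summed to 2889.4 to 3407.8 CPM in KO_B6, 3107.6 to 3285.1 CPM in WT_B6, 2165.4 to 3101.8 CPM in Tg_FvB and 2400.4 to 2423.2 CPM in WT_FvB. Of these, 3 were called lower and 1 higher in the knockout, and 2 higher with the transgene. Their part in the results was likewise not tested.

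Among 45 other RNA-binding protein genes with known roles in neural cells, 44 were tested. In KO_B6, 11 were called higher and 8 lower, with a median log2 fold change of 0.09, against 0.02 over all genes, and in Tg_FvB 1 was called, lower. That share of calls in the knockout, 19 of 44, is to be read against the 45.8% of all genes.

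Ptbp1, the repressor of neuronal exons that progenitors express, averaged 269.3 ± 10.4 CPM in KO_B6 and 169.8 ± 5.58 CPM in WT_B6 (log2 fold change 0.67 ± 0.08, edgeR adjusted p = 3.3e-05). Its neuronal relative Ptbp2 averaged 181.8 ± 20.8 CPM in KO_B6 and 199.6 ± 4.90 CPM in WT_B6, without a call (-0.14, edgeR adjusted p = 0.291). Ptbp1 over Ptbp2, per kilobase, was 1.72 ± 0.225 in KO_B6, 0.976 ± 0.0284 in WT_B6, 1.51 ± 0.298 in Tg_FvB and 1.77 ± 0.0424 in WT_FvB, so that WT_B6 alone was below 1.

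Other abundant genes with the largest called changes were Zfp36l1, which promotes decay of AU-rich messages (117.5 CPM in KO_B6 and 212.6 CPM in WT_B6, -0.86, edgeR adjusted p = 0.000213), and the splicing factor gene Mbnl1 (69.7 CPM in KO_B6 and 40.8 CPM in WT_B6, 0.77, edgeR adjusted p = 0.000791). Tial1 (0.60) and Tia1 (0.52), whose proteins bind U-rich RNA and join stress granules, were called higher. Nova2, a neuronal splicing regulator, was called lower (66.0 CPM in KO_B6 and 88.7 CPM in WT_B6, -0.42, edgeR adjusted p = 0.0469), and its relative Nova1 was not (114.6 CPM in KO_B6 and 128.7 CPM in WT_B6, -0.17, edgeR adjusted p = 0.0585). Srrm4, which promotes neuronal microexons, averaged 0.571 CPM in KO_B6 and 0.308 CPM in WT_B6 and was not called. The call with the transgene was Cpeb2, a regulator of translation (43.5 CPM in Tg_FvB and 54.7 CPM in WT_FvB, -0.33, edgeR adjusted p = 0.0465).

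**Figure D4:**
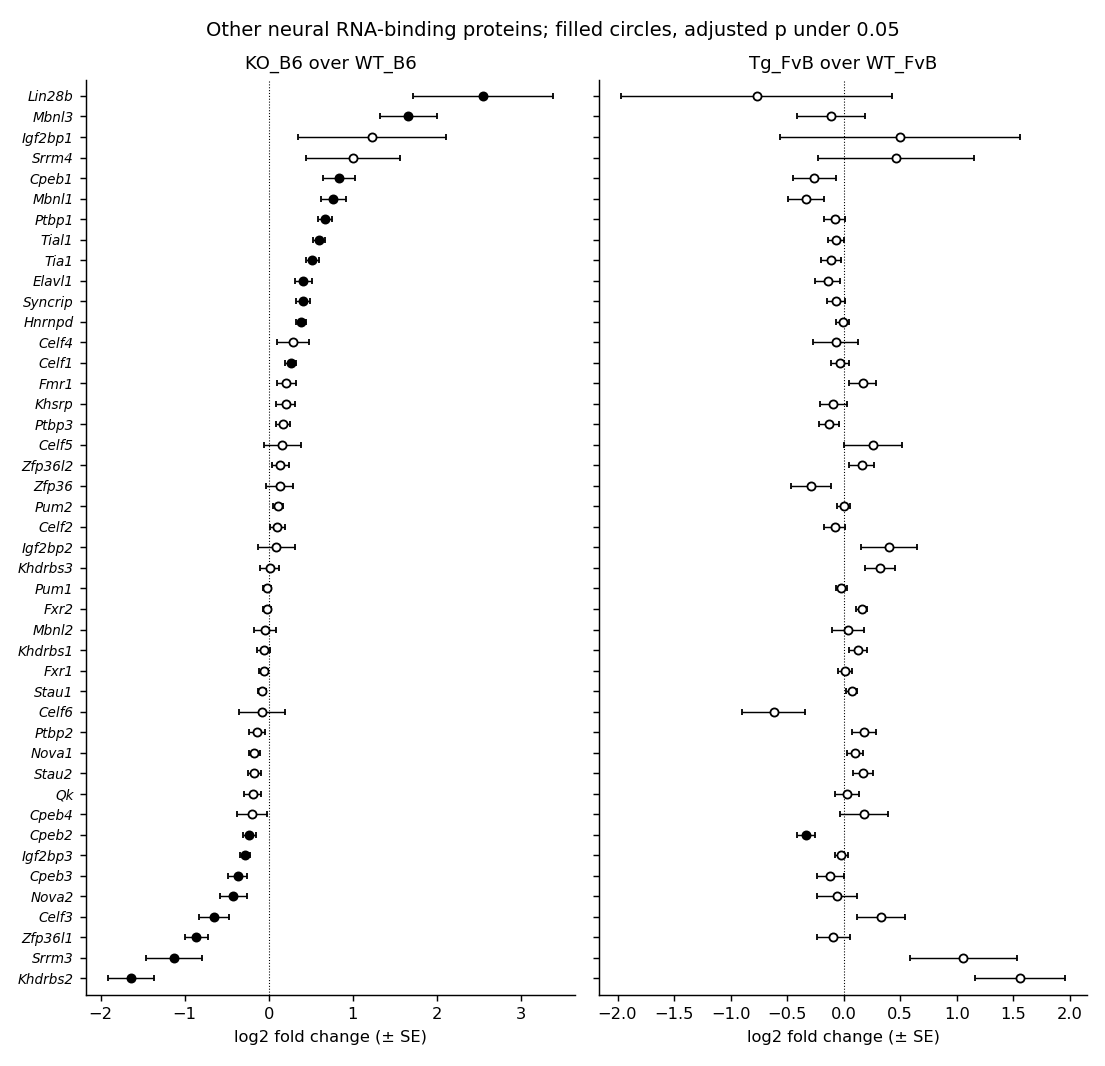
Log2 fold changes (± SE) of the 44 tested genes of the list of other neural RNA-binding proteins, in KO_B6 over WT_B6 and Tg_FvB over WT_FvB, ordered by the first; filled circles have an adjusted p under 0.05. In the knockout 11 filled circles lie right of 0 and 8 left of it, and with the transgene the single filled circle is Cpeb2.

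The genes whose pattern over the 15 libraries came closest to each member were found by the root mean square difference of centred log2 CPM. For Msi1 these were Atp9a (0.114), Mocs1 (0.115) and Sash1 (0.116) of 10614 candidates. Fam124a (0.089), Rundc3a (0.099) and Maged2 (0.103) were closest to Elavl3, and Pias1, Pard6g and Cttnbp2 to Elavl4. The closest to Elavl2 included Khdrbs3 (0.091), itself an RNA-binding protein gene, beside Sec14l2 and Cspg5. Msi2 was nearest to Setd7, Pik3c2a and Fn3krp, and Rbfox2 to Ighmbp2, Urgcp and Clip2. For Rbfox3, which varied most of the 7 tested genes across the libraries (SD 1.13 on the log2 scale), Kcnip1 was nearest at 0.402. The measure grows with the spread of the gene itself, so its size is not comparable between members. These likenesses describe the 15 libraries, which share background, litter and near-identical profiles.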

How the data were processed

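RNA was sequenced as 66 bp paired-end reads. The deposited values are raw counts per gene, made with featureCounts on mm10 after bcl2fastq, per the submitters' processing notes. The aligner, annotation and strand setting are unknown here, so values of overlapping genes are uncertain. The other deposited column, gene length in bases, scaled CPM to a kilobase. Entries with no gene name (917) held 0.45% to 0.545% of counts and were left out.

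Groups follow the genotype and background fields. All 15 libraries entered 1 edgeR quasi-likelihood model (edgeR 4.0.16, limma 3.58.1, R 4.3.3) with a coefficient per group, TMM scaling and filterByExpr (minimum count 10). It kept 15261 genes and removed 11002. Genes were called at a Benjamini-Hochberg adjusted p under 0.05 over all tested genes, in 4 comparisons. The code was tested on simulated counts. DESeq2 1.42.0 was an alternative. Litter and embryo numbers of WT_B6 replicate 1 are also those of WT_FvB replicate 2.

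Named genes are all members, Kat6b, listed genes (for other RNA-binding proteins, 6 genes always, plus the largest called changes at a mean of at least 5 CPM) and the 3 genes nearest each member. Members and lists were chosen with earlier results of these data known.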

Additional observations from a re-analysis of the deposited data

Results flagged for a closer look

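Msi1 in Tg_FvB replicate 4 was 45.1 CPM, below the 55.5 to 61.2 CPM of the other 5 transgenic libraries, a gap of 0.65 of the range of the group. It was the only sample to stand apart by that measure among 16 groups of values examined, where chance gives about 1 in 20. It is also the shallowest library, at 12336303 counts, and the lowest Tg_FvB library for Elavl2, Elavl3, Elavl4 and Rbfox3. Of the 6 Tg_FvB libraries it also had the lowest summed neural stem cell (7351.3 CPM), neuron (966.6 CPM) and intermediate progenitor (246.5 CPM) markers, and lay at 52.5 on the first principal component, where the others lay between 3.94 and 37.8. The part of depth and of these markers in the Msi1 value was not tested.

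In 4 of the 7 tested genes the knockout effect and the transgene effect differed by edgeR's quasi-likelihood test of the difference itself, each with the knockout effect the lower, in a test that called 37.3% of all genes, 17.8% with that sign. The log2 difference was -1.40 for Msi1 (adjusted p = 7.72e-05), -1.09 for Elavl3 (adjusted p = 0.00064), -0.59 for Elavl4 (adjusted p = 0.0199) and -2.52 for Rbfox3 (adjusted p = 0.0123). With near-identical libraries summed none of the 4 was called (adjusted p 0.247 for Msi1 and Elavl3, 0.341 for Elavl4 and 0.293 for Rbfox3 by edgeR), and with litter as a covariate Elavl4 (0.0722) and Rbfox3 (0.0664) were not. The comparisons lie on different backgrounds, so genotype and strain cannot be told apart in these differences.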

How the results depend on the processing

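Of 490 fold changes of single genes recomputed under alternatives, 418 kept direction and side of the threshold, 42 lost the call, 15 gained it and 15 changed sign. The cause of these changes was not tested, except that summing near-identical libraries leaves fewer samples.

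Summing into 9 profiles left 0 members called in all 4 comparisons and, over all genes, 5 (knockout) and 0 (the other 3). In the transgene comparison, fitting only the groups compared gave 0 members and 10 genes, litter as a covariate 0 and 10, DESeq2 722 genes (356 higher, 366 lower, against 105 and 178 by edgeR) and leaving out Tg_FvB replicates 5 and 6 gave 1 and 638. Leaving out 1 library gave 0 to 4 members and 2 (either WT_FvB library) to 1763 genes (Tg_FvB replicate 4), and no members without Tg_FvB replicate 1, 2, 3 or 6. For the difference of effects, litter gave 2 members and 2862 genes, and leaving out 1 library 2 to 5 members and 3598 to 6760 genes. These fits took litter within a background, which gives no value between the wild types. Litter 844 is a label on both backgrounds, and with its number taken as shared across them, an alternative chosen after seeing the data, 5 members and 3903 genes were called between the wild types.

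Replicate numbers did not pair samples (correlation of deviations -0.024, -0.011 and -0.011 on B6 and 0.081 and 0.003 on FvB). With a replicate block, 4 members (Msi1, Elavl2, Elavl3, Rbfox3) and 1577 genes were called for the transgene, 4 and 7815 for the knockout, and 6 and 5893 for the difference of effects. With the block across backgrounds, also chosen after seeing the data, 7 members and 8076 genes were called between the wild types.

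Changes of sign were all in uncalled values of genes near 0 in the main fit. Rbfox2 was 0 (block), 0.03 (litter) and -0.05 to 0.03 (leaving out 1 library) in the knockout. With the transgene it was -0.05 (block), -0.05 (litter), 0 (without replicates 5 and 6) and -0.05 to 0.09 (leaving out 1 library). In the difference of effects it was 0.05 (block), 0.08 (litter) and -0.12 to 0.01 (leaving out 1 library). In the knockout Elavl2 was 0 (summed) and -0.02 to 0.08, and Rbfox3 -0.30 to 0.20, when 1 library was left out. Few counts limit Rbfox1 and, in WT_FvB, Rbfox3.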
